A study of Mus musculus with 4 samples.

Results

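Cytosolic ribosomal protein genes encode the proteins that, together with ribosomal RNA, form the large and small subunits of the ribosome in the cytoplasm. They were taken as the protein-coding genes whose symbols are Rpl or Rps with a number, in some cases with a single letter (a, x, l or y) and a further digit after it, together with Rpsa, Rplp0, Rplp1 and Rplp2, and without the Rps6k kinases. Of 38293 gene rows in each library, 82 were members, 50 of the large and 32 of the small subunit, on 19 chromosomes. Rpl24 is not analysed here, and 6 pseudogenes whose symbols fit the pattern were left out. The groups were tumours of the labelled genotype AXL KO (the study's AXL-/-, 2 libraries) and WT (AXL+/+, 2 libraries), all from mammary tumours of MMTV-Neu mice of the FVB strain. MMTV-Neu mice express the Neu (Erbb2) oncogene from a mouse mammary tumour virus promoter, which is active mainly in mammary epithelium, so both groups carry this transgene. AXL is a receptor tyrosine kinase that binds GAS6, and the study asked which transcripts differ between Neu tumours with and without it. The labels give neither the age of the mice nor the cells in which Axl was deleted. They do not say that the libraries of a group came from separate animals, so each p-value may not rest on the spread between animals.

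Ribosomal proteins are needed in equal numbers for each ribosome, and their genes are therefore transcribed and translated in a coordinated way in most cells. Their messenger RNAs begin with a run of pyrimidines at the 5′ end, the TOP motif (5′ terminal oligopyrimidine), through which mTORC1 and the RNA-binding protein LARP1 control their translation. MYC raises ribosome production in many tumours, including mammary tumours, and mouse and human genomes hold many processed pseudogenes copied from ribosomal protein messenger RNAs, which complicates the assignment of short reads.

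The gene counts of a library summed to 19161051 and 33131739 in AXL KO replicates 1 and 2, against 21276336 and 18929743 in WT replicates 1 and 2. The level of Axl was 4.75 and 4.89 CPM (counts scaled to the library total and a TMM factor) in AXL KO libraries, against 61.8 and 35.2 CPM in WT libraries, which matched the labels. Its log2 difference of −3.33 ± 0.35 (SE) had an unadjusted p of 0.000184 and an adjusted p of 0.9997 by edgeR, so the deleted gene itself was not called. The 10 mammary epithelial markers summed to 4052 and 3813 CPM in AXL KO libraries, against 4220 and 4551 CPM in WT libraries, with no marker at 0. Of these markers, 8 had a log2 difference below 0 and 2 above. Krt18 had 682.2 and 631.6 CPM in AXL KO, against 690.5 and 1366 CPM in WT. Krt8 had 635.6 and 528.8 CPM in AXL KO, against 610.3 and 928.4 CPM in WT. Krt18 and Krt8 thus took a larger part of the sum in WT replicate 2, and the sum does not stand for each marker. The description of AXL KO replicate 2 has another prefix than those of the other 3 libraries, and that library also stood apart at Rpl21 and Rpl29, as given below. WT replicate 2 stood apart in many genes: 125 of 14330 tested genes were at least 6-fold below all other libraries there, against 5, 11 and 6 genes in AXL KO replicate 1, AXL KO replicate 2 and WT replicate 1, counting genes above 3 CPM in the other 3 libraries. In bulk tumours, fewer cells of a type and less RNA per cell cannot be told apart.

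Part of the members carried sequences known from ribosomal protein promoters in their start regions. RefSeq promoter sequences (GRCm38.p6, 250 bases before to 50 after the annotated start) were found for 62 of the 82 members. A C at the annotated start followed by 4 pyrimidines, the form of a TOP motif, stood in 13 of 62 members (21%) and in 3.01% of all 27025 genes with a promoter. The match had to begin at the annotated base, so a run that begins a few bases away, as in Rps9 below, was not counted. The letters CTCTTTC lay within 50 bases of the start, on the strand of the gene, in 12 members (19.4%) and in 1.62% of all genes, and CTTTCC, which overlaps it in part, in 19 members (30.6%) and 5.43%. CCGGAAG, the core sequence bound by ETS factors, lay on either strand of the whole window in 26 members (41.9%) and in 9.93% of all genes. CACGTG, the E-box bound by MYC and USF factors, lay on either strand in 6 members (9.68%) and in 8.09% of all genes. A match is a description of the letters and not a mapped site. Shown are 60 bases, 40 before the start and 20 from it, with CTCTTTC in capitals. They are given for the 3 members that were lower in both AXL KO libraries and for Rpl35. All 4 were, like most members, highest in WT replicate 2.
Rpl28, chr7:4792925-4792984, plus strand: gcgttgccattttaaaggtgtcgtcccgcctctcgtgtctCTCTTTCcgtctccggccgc
Rps9, chr7:3704001-3704060, plus strand: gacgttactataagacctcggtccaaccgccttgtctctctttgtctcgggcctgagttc
Rps13, chr7:116334171-116334230, minus strand: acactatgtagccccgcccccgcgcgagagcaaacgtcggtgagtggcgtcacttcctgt
Rpl35, chr2:39005112-39005171, minus strand: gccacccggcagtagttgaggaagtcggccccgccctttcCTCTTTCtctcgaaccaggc
In Rpl28 and Rpl35 the capitals begin at the annotated start itself. The same stretch of Rpl7a, Rpl12 and Rps21, which like Rpl35 lie on chromosome 2 and were highest in WT replicate 2, had no CTCTTTC.

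Ribosomal protein genes as a whole were at similar levels in AXL KO and WT tumours, and the 2 WT libraries lay further apart than the groups did. Reads on the 82 members took 3.08% and 2.77% of gene counts in AXL KO libraries, against 2.63% and 3.82% in WT libraries. The mean was 2.92% ± 0.22 in AXL KO and 3.22% ± 0.84 in WT (SD, n = 2 each), and both AXL KO libraries lay between the WT libraries. The large subunit genes took 1.85% and 1.64% in AXL KO, against 1.58% and 2.28% in WT, and the small subunit genes 1.23% and 1.12% in AXL KO, against 1.05% and 1.54% in WT. The order of the libraries was thus the same for both subunits. With 2 libraries in each group an exact permutation test cannot give a two-sided p below 0.333, so no p is given for these shares.

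**Figure D1:**
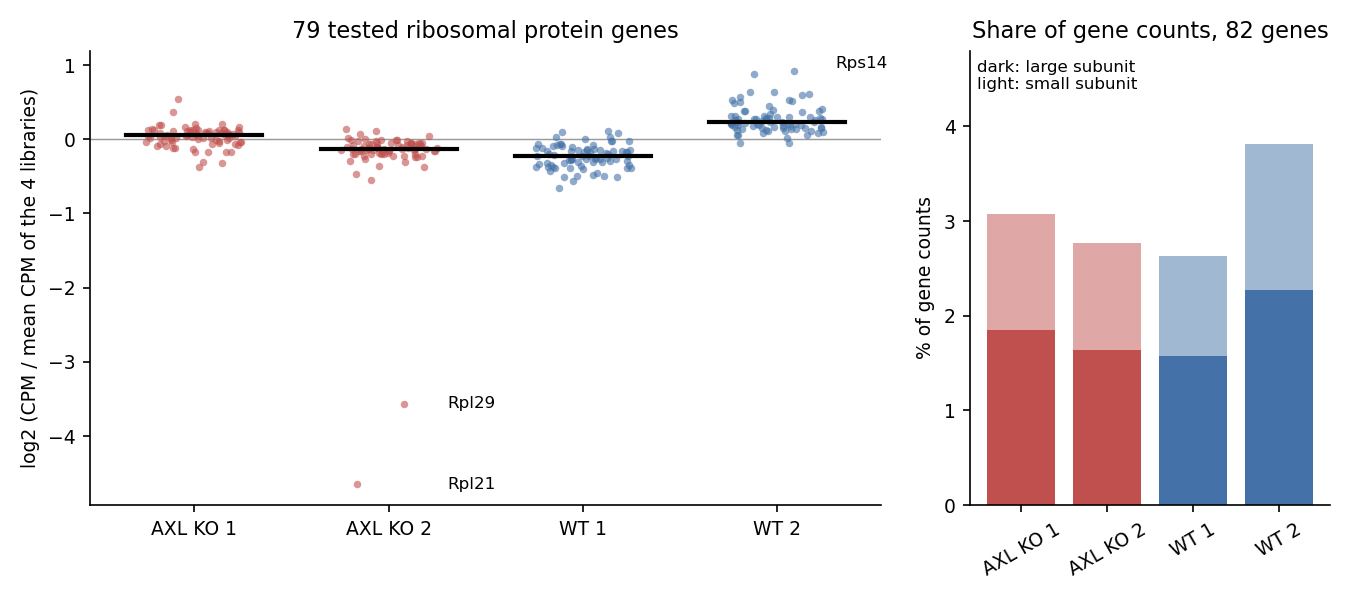
Left, each point is 1 of the 79 tested ribosomal protein genes, as log2 of its CPM over its mean CPM in the 4 libraries, with the median as a bar. Right, the share of gene counts on the 82 members per library (AXL KO 3.08% and 2.77%, WT 2.63% and 3.82%), split by subunit. Most genes lay lowest in WT replicate 1 and highest in WT replicate 2, while Rpl21 and Rpl29 lay far below the rest in AXL KO replicate 2.

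Of the 82 members, 79 passed edgeR's filter on low counts and were tested with all 14330 genes that passed. Rpl3l and Rpl10l, copies of Rpl3 and Rpl10 known for expression in striated muscle and testis, had 0 counts in all libraries, which allows up to 0.157 and 0.0905 CPM in AXL KO and up to 0.141 and 0.158 CPM in WT (3 counts per library, counting error only). Rpl39l, a copy of Rpl39 known from testis, had 5 and 5 counts in AXL KO, against 2 and 11 in WT, and was not tested. By edgeR's quasi-likelihood test with Benjamini-Hochberg adjustment over all genes, 0 members were called at 0.05 (0% of all genes), and 0 had an unadjusted p below 0.05 (2.19% of all genes). DESeq2 called 0 members, against 16 genes in all (0.112%), and gave 0 members an unadjusted p below 0.05 (3.5% of all genes). The lowest unadjusted p of a member was 0.181 (Rpl17), and every member's adjusted p was 0.9997.

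The log2 differences (AXL KO minus WT) of the members ran from −0.94 to 0.09, with a median of −0.04 against −0.0019 for all tested genes. They were below 0 for 63 members and above 0 for 16, while 50.3% of all genes were below 0, but 21 were below and 58 above 0 when libraries were scaled to the summed counts of the members themselves. The difference was within 0.1 of 0 for 58 of 79 members, against 29.2% of all genes, and the median standard error of a member was 0.26, so most differences were well inside their error. The median was −0.05 over 47 large subunit genes, 37 of them below 0, and −0.03 over 32 small subunit genes, 26 of them below 0. Across the 79 genes, log2 mean levels in AXL KO and WT had a Pearson r of 0.979 as a description across genes, which share their libraries and are not independent replicates.

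**Figure D2:**
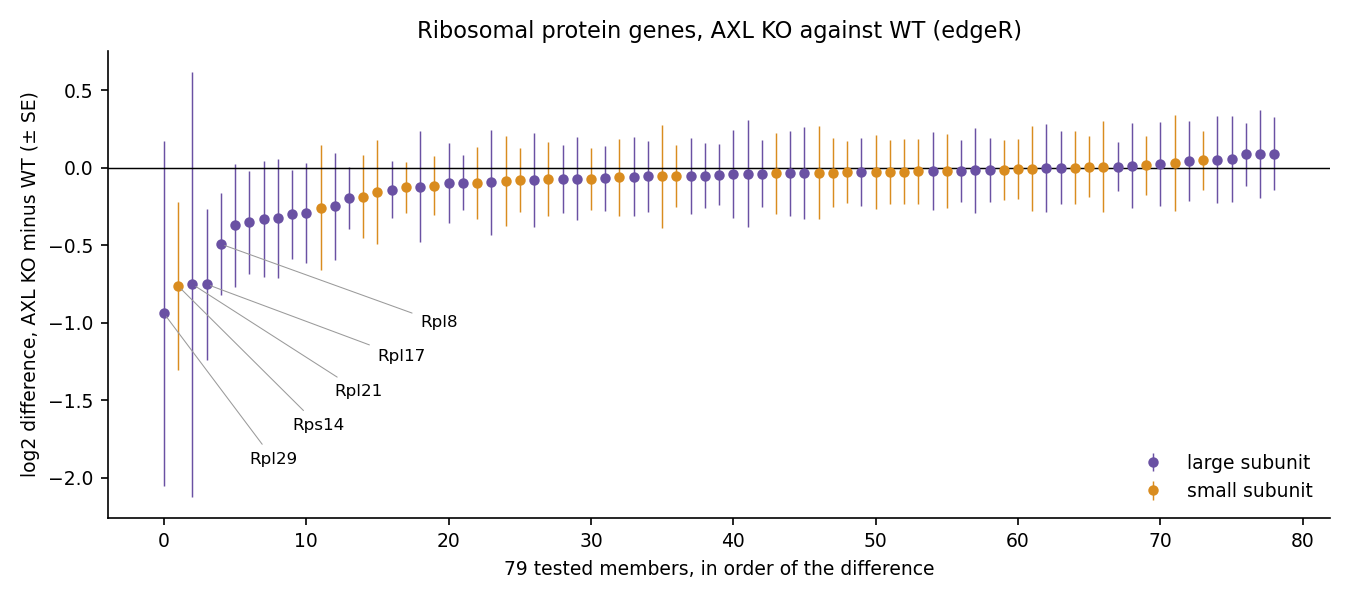
Log2 difference (AXL KO minus WT, vertical axis) with its standard error from edgeR for the 79 tested members, in order of the difference along the horizontal axis. The differences run from −0.94 to 0.09, and the 5 lowest (Rpl29, Rps14, Rpl21, Rpl17 and Rpl8) stand below the others.

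No member was above both WT libraries in both AXL KO libraries (14.7% of all genes), and 3 were below both (14.5% of all genes). These 3, named after their values were seen, were Rps13, Rpl28 and Rps9. Rps13 had 188 and 189 CPM in AXL KO, against 202 and 209 CPM in WT. Rpl28 had 258 and 259 CPM in AXL KO, against 263 and 291 CPM in WT. Rps9 had 699 and 718 CPM in AXL KO, against 720 and 796 CPM in WT. Their log2 differences were −0.13 ± 0.16, −0.10 ± 0.18 and −0.10 ± 0.23 (SE), each smaller than its error.

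The stalk of the large subunit, which recruits elongation factors, is made by Rplp0, Rplp1 and Rplp2. Rplp0 had 1191 and 1179 CPM in AXL KO, against 1180 and 1249 CPM in WT, and varied little among the libraries. Rplp1 had 778 and 619 CPM in AXL KO, against 548 and 764 CPM in WT, one of the 5 members with the highest differences (0.09 ± 0.28, log2, SE). Rplp2 had 215 and 262 CPM in AXL KO, against 257 and 234 CPM in WT. The 3 stalk genes thus had their peaks in different libraries, and none separated the groups. Rpl5 and Rpl11, which form the 5S particle with 5S RNA and bind MDM2 when ribosome assembly is disturbed, showed the general order. Rpl5 had 603 and 538 CPM in AXL KO, against 468 and 706 CPM in WT. Rpl11 had 304 and 268 CPM in AXL KO, against 238 and 334 CPM in WT, with a log2 difference of 0.00043 ± 0.24 (SE).

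Among the small subunit proteins, Rps6 is the substrate of the S6 kinases downstream of mTORC1. It had 295 and 280 CPM in AXL KO, against 263 and 324 CPM in WT. Rpsa, which encodes the protein also known as the laminin receptor, had 636 and 555 CPM in AXL KO, against 544 and 667 CPM in WT. Rps19, the gene most often mutated in human Diamond-Blackfan anaemia, had 266 and 242 CPM in AXL KO, against 232 and 280 CPM in WT. All 3 had AXL KO libraries between the WT libraries. Rps27a, whose protein is made as a fusion with ubiquitin, had 326 and 302 CPM in AXL KO, against 243 and 387 CPM in WT. Rps4x, the X-linked form of a small subunit protein, had 1223 and 907 CPM in AXL KO, against 901 and 1644 CPM in WT, with a log2 difference of −0.26 ± 0.40 (SE).

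Among the large subunit proteins, Rpl10 completes the peptidyl transferase site. It had 497 and 426 CPM in AXL KO, against 442 and 506 CPM in WT, and was lowest in AXL KO replicate 2. Rpl3, an early assembling protein near the same site, had 387 and 370 CPM in AXL KO, against 355 and 577 CPM in WT. Rpl7 had 889 and 653 CPM in AXL KO, against 626 and 1052 CPM in WT. The order of Rpl3 and Rpl7 was that of most members, with WT replicate 2 highest. Rpl39, which lines the exit tunnel, had 201 and 176 CPM in AXL KO, against 143 and 228 CPM in WT. The other 4 of the 5 highest differences were those of Rpl6, Rpl38, Rpl35a and Rpl31, at 0.09, 0.09, 0.06 and 0.05 on the log2 scale, each below its standard error of 0.20 to 0.28. Rpl38, whose loss in mice alters translation of Hox transcripts, had 158 and 150 CPM in AXL KO, against 125 and 165 CPM in WT.

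Paralogs were expressed beside their partners for 3 pairs. Per kilobase of coding sequence, Rpl22l1 made up 14.9% and 18.2% of the level of the pair with Rpl22 in AXL KO, against 16.1% and 21.5% in WT. Rpl7l1 made up 10.7% and 13.8% of the pair with Rpl7 in AXL KO, against 14.8% and 8.87% in WT. Rps27l, a p53-responsive copy in human cells, made up 74.2% and 75.6% of the pair with Rps27 in AXL KO, against 70.0% and 76.7% in WT. That share rests on how reads were assigned, since Rps27 has no unique coding stretch of 50 bases and the 5 counted genes that share one with it, among them Rps27rt with all of them, summed to 300 and 236 CPM in AXL KO, against 253 and 331 CPM in WT (scaled to library totals only). In each pair the groups overlapped. Rps27l had 234 and 212 CPM in AXL KO, against 157 and 280 CPM in WT, and Rps27 had 81.2 and 68.4 CPM in AXL KO, against 67.0 and 85.3 CPM in WT. Rpl22l1 had 59.5 and 57.9 CPM in AXL KO, against 46.7 and 92.9 CPM in WT, and Rpl22 had 360 and 276 CPM in AXL KO, against 257 and 360 CPM in WT. Rpl7l1 was highest in WT replicate 1 and lowest in WT replicate 2, at 97.3 and 95.6 CPM in AXL KO, against 98.7 and 93.2 CPM in WT.

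Levels of the members differed widely. Per kilobase of coding sequence, over all 4 libraries, Rpl41 was highest at 6092 CPM, followed by Rplp1 at 1980 and Rps14 at 1825. Without WT replicate 2, Rps14 was at 1287, below Rpl23 at 1630. Rpl41 has a coding sequence of only 75 bases, a small part of its transcript, and per kilobase of transcript it was at 1045 CPM, below Rps14 at 1385, Rplp1 at 1357 and Rps4x at 1199. The lowest were Rpl29 at 83.6, Rpl7l1 at 130 and Rpl22l1 at 177 CPM per coding kilobase. Rpl29 was at 109 without AXL KO replicate 2, where it was low, and counted genes that share a coding stretch with it summed to more than its own level in every library. Rpl41 itself had 464 and 433 CPM in AXL KO, against 392 and 539 CPM in WT.

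The pattern most members shared was a difference between the WT libraries. WT replicate 2 was the highest library for 71 of 79 members (34.6% of all genes), WT replicate 1 the lowest for 63 (22.8%), and both held for 60 (12%). Both AXL KO libraries lay between the WT libraries for 61 members, against 26.3% of all genes. The level in WT replicate 2 was 1.38-fold that in WT replicate 1 in the median member, with quartiles of 1.22 and 1.60 and a range of 0.909 to 2.98. AXL KO replicate 1 was above AXL KO replicate 2 for 68 members, by 1.12-fold in the median. The non-member genes whose log2 CPM followed the median member most closely over the 4 libraries, among 9709 genes at a mean of at least 10 CPM, were Rbm39, a splicing factor gene (Pearson r 0.99999), Gm13680 (0.99977) and 2410004B18Rik (0.99975), where with 4 libraries such values are a description only. Rbm39 had 346 and 244 CPM in AXL KO, against 215 and 515 CPM in WT. The median member CPM was 314 and 278 in AXL KO, against 266 and 360 in WT. The WT libraries thus lay further apart in Rbm39, since a correlation does not measure the size of a difference.

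How far WT replicate 2 stood above the other libraries differed by the chromosome of the member. On the log2 scale, WT replicate 2 minus the mean of the other 3 libraries had a median of 0.78 over 368 non-member genes of chromosome 18, 0.42 over 1153 of chromosome 2 and 0.41 over 545 of chromosome 15, while the medians of the other 17 chromosomes lay between −0.12 and −0.0061. The 2 members on chromosome 18 were at 1.34 (Rpl17) and 1.42 (Rps14), the 4 on chromosome 15 (Rpl3, Rpl30, Rpl37 and Rpl8) at a median of 0.85, and the 4 on chromosome 2 (Rpl12, Rpl35, Rpl7a and Rps21) at a median of 0.74. Over these 10 members the median was 0.85, against 0.30 for the 69 members elsewhere. Apart from Rpl21 and Rpl29, which were low in AXL KO replicate 2, the members elsewhere ran from −0.06 to 0.77. The non-member genes had a median of 0.47 over the 2066 on the 3 chromosomes and of −0.05 over the 12185 elsewhere, so the median of the members lay above that of the other genes in both parts of the genome. These chromosomes were chosen with the data in view, and the cause was not tested.

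Rps14, a small subunit protein whose gene is lost in a form of human myelodysplastic syndrome, had 663 and 563 CPM in AXL KO, against 523 and 1558 CPM in WT. Rpl17, a protein at the rim of the exit tunnel, had 425 and 400 CPM in AXL KO, against 375 and 1013 CPM in WT. Rpl8, which encodes uL2 near the peptidyl transferase site, had 500 and 530 CPM in AXL KO, against 529 and 920 CPM in WT. In all 3 the AXL KO libraries were close to WT replicate 1, and WT replicate 2 stood alone. Their log2 differences of −0.76 ± 0.54, −0.75 ± 0.49 and −0.49 ± 0.33 (SE) were among the 5 lowest and did not pass edgeR's test (unadjusted p of 0.215, 0.181 and 0.191).

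**Figure D3:**
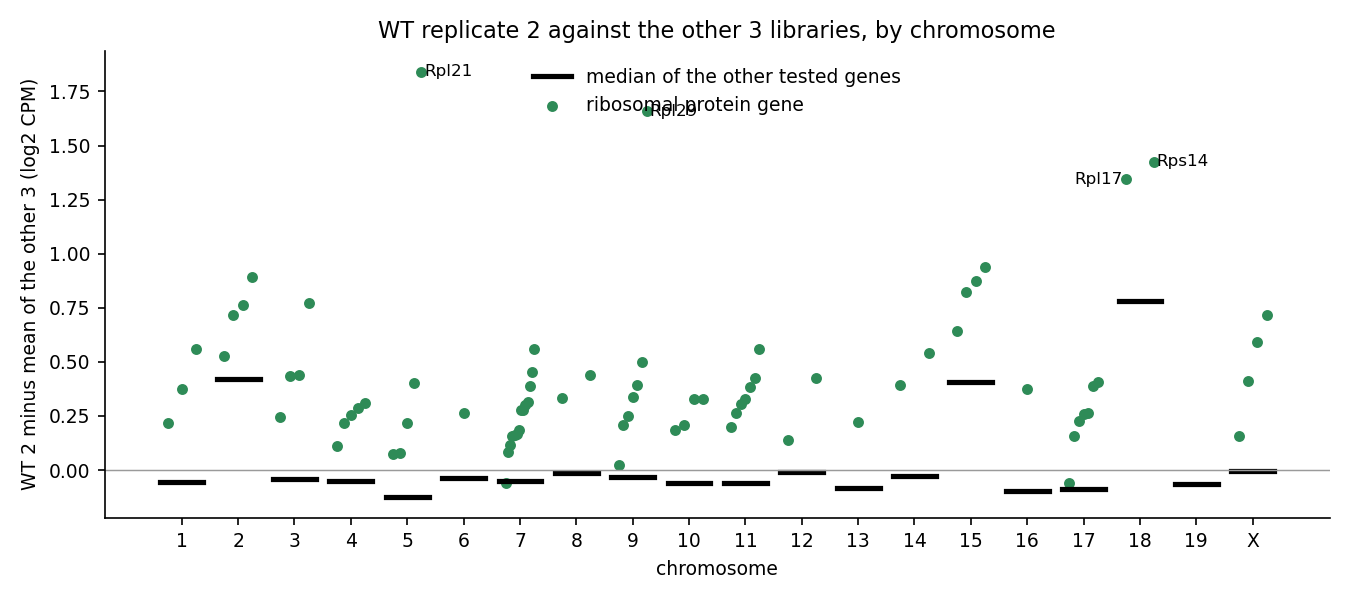
Level in WT replicate 2 minus the mean of the other 3 libraries (log2 CPM, vertical axis) by chromosome, with each ribosomal protein gene as a point and the median of the other tested genes as a bar. The bars of chromosomes 2, 15 and 18 stand at 0.42, 0.41 and 0.78, those of the other 17 chromosomes between −0.12 and −0.0061, and most points lie above the bar of their chromosome.

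Which WT library was used set the direction of the members. Without WT replicate 1, 78 of 80 tested members were below 0 (48.2% of 14849 genes), the median was −0.25, and 246 genes were called in all (1.66%) but 0 members. In that comparison 11 members had an unadjusted p below 0.05 by edgeR, all lower in AXL KO (20.2% of all genes in either direction), and 10 of them were the members on chromosomes 2, 15 and 18, the other being Rpl22l1. Their lowest adjusted p was 0.0594. Without WT replicate 2, 68 of 79 members were above 0 (52.4% of all genes) with a median of 0.18, and 1 member, Rps27l, had an unadjusted p below 0.05 (2.72% of all genes). Without AXL KO replicate 1 the median was −0.15, with Rpl21 at −4.98 and Rpl29 at −3.96. Without AXL KO replicate 2, which leaves the 3 libraries that share a description prefix, the median was 0.0042. There 38 members were below and 42 above 0. The lone library of a group was assumed to vary like the other group in these fits. Chromosomes 2, 15 and 18 were chosen with the values of WT replicate 2 in view. The count of their members without WT replicate 1 is therefore not separate evidence.

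Rpl21 and Rpl29 were low in AXL KO replicate 2 only. Rpl21 (chr5:146832890-146837032, plus strand, GRCm38) had 627 and 17.2 CPM in AXL KO, against 469 and 616 CPM in WT. Rpl29 (chr9:106429454-106431568, plus strand) had 51.8 and 3.39 CPM in AXL KO, against 43.0 and 62.4 CPM in WT. The mean of the other 3 libraries was 33.2-fold and 15.5-fold that in AXL KO replicate 2. By the log2 difference they were among the 5 lowest members, at −0.75 ± 1.37 and −0.94 ± 1.11 (SE), and the large errors come with the gap between the AXL KO libraries. Among all 14330 genes 11 were at least 6-fold below every other library in AXL KO replicate 2, and 2 of them were members. Another of the 11, named after its values were seen, was the glycolytic gene Gapdh, with 461 and 9.39 CPM in AXL KO, against 419 and 1245 CPM in WT.

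Members differed in how much of their coding sequence is unique in the transcriptome. Of the 79 tested members, 28 had no stretch of 50 coding bases that is absent from all other GENCODE transcripts, and 12 had at least 50% unique stretches. The median member had 8.70% unique stretches and shared a stretch with 8 pseudogenes. Rpl21 had 0% unique stretches and Rpl29 9.75%, and each shared stretches with 81 pseudogenes, while Gapdh shared them with 212. Rpl7a, with 120 pseudogenes, Rps2, with 71, and Rpl17, with 50, stood at −0.22, 0.07 and −0.45 in AXL KO replicate 2 against the mean of the other 3 libraries (log2), where the median member stood at −0.15, Rpl29 at −3.90 and Rpl21 at −5.03. Over the 12 members with at least 50% unique stretches, the median log2 difference was −0.04, WT replicate 2 was highest for 10 and WT replicate 1 lowest for 9, and the median ratio of WT replicate 2 to WT replicate 1 was 1.32.

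**Figure D4:**
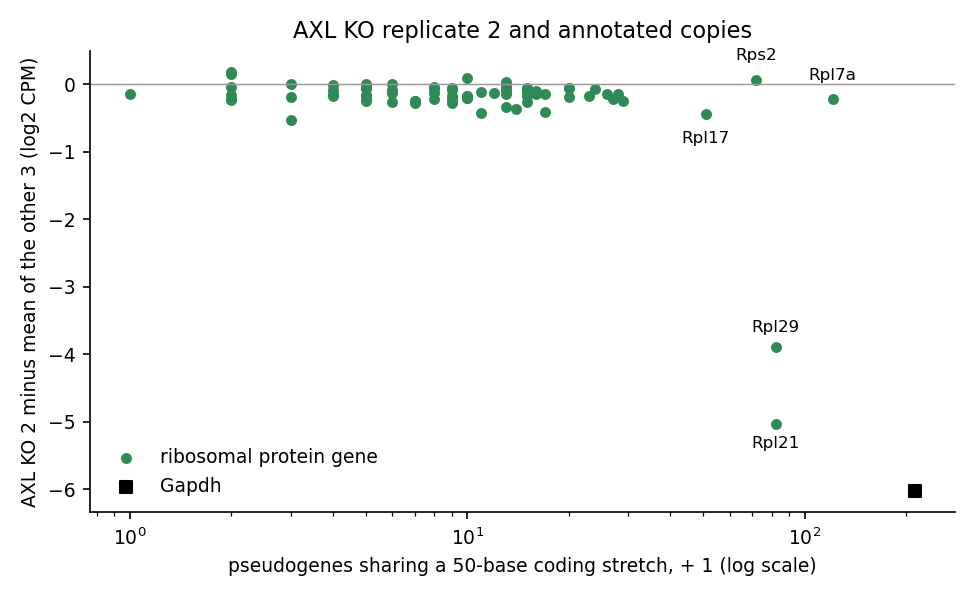
Number of annotated pseudogenes that share a 50-base coding stretch with a gene, plus 1 (horizontal axis, log scale), against its level in AXL KO replicate 2 minus the mean of the other 3 libraries (log2 CPM). Rpl21 and Rpl29 with 81 pseudogenes each and Gapdh with 212 lie far below 0, while Rpl7a with 120 lies at −0.22.

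Shown is a stretch of 60 coding bases of Rpl21 and of the same place in 4 of its pseudogenes. These are 97.92% to 99.58% identical to Rpl21 over 480 coding bases. They were chosen because their counts in AXL KO replicate 2 differed from those in the other libraries. Capitals mark the positions at which at least 1 copy differs. The stretch covers coding bases 288 to 347.
Rpl21: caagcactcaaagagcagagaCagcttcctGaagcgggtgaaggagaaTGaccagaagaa
Gm10240: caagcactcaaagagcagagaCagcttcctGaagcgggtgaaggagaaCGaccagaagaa
Gm10163: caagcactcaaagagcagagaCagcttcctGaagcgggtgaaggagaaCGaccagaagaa
Gm12411: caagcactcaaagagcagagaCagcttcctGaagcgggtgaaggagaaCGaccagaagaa
Gm9104: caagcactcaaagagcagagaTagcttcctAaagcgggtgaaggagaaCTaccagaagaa
Gm10240 (chr15:68309819-68310301, plus strand) and Gm10163 (chr9:88390837-88391317, plus strand) carry the same letters here, as does Gm12411 (chr4:45550017-45550499, plus strand). Gm9104 (chr17:45465788-45466270, plus strand) differs at 4 positions. For Rpl29 the same comparison over coding bases 23 to 82 had 1 differing position.
Rpl29: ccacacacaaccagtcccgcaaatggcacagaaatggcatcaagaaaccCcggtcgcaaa
Gm8210: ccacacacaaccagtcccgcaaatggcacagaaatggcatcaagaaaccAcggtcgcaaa
Gm13841: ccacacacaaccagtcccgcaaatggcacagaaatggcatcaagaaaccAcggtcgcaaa
Gm8210 lies at chr1:43189156-43189638 on the plus strand and Gm13841 at chr5:115801677-115802159 on the minus strand, and both are 99.38% identical to Rpl29 over 480 coding bases.

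The pseudogene counts of AXL KO replicate 2 differed from those of the other libraries in both directions. Gm10240 had 0 and 206 counts in AXL KO, against 0 and 0 in WT, and Gm9104 had 11 and 218 counts in AXL KO, against 3 and 3 in WT. Gm10163 had 24 and 0 counts in AXL KO, against 24 and 37 in WT, and Gm12411 had 114 and 8 counts in AXL KO, against 84 and 95 in WT. Of the Rpl29 copies, Gm8210 had 0 and 707 counts in AXL KO, against 1 and 2 in WT, and Gm13841 had 1347 and 1249 counts in AXL KO, against 1349 and 1837 in WT. Scaled to library totals, Gm13841 was at 70.3 and 37.7 CPM in AXL KO, against 63.4 and 97.0 CPM in WT, so it too was lowest in AXL KO replicate 2. Rpl21 itself had 11742 and 574 counts in AXL KO, against 10028 and 11761 in WT, and Rpl29 had 969 and 113 counts in AXL KO, against 919 and 1192 in WT. Rpl29 and Gm8210 together came to 50.6 and 24.7 CPM in AXL KO, against 43.2 and 63.1 CPM in WT (scaled to library totals only), so AXL KO replicate 2 remained lowest. All 53 counted genes sharing a stretch with Rpl21 summed to 113 and 132 CPM in AXL KO, against 96.5 and 87.2 CPM in WT on the same scale, less than the Rpl21 level of the other libraries. These copies were named after their values were seen. Non-unique alignments made up 25.6% and 24.6% of all lines in AXL KO, against 23.2% and 28.1% in WT, and the files do not say to which genes they belong.

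**Figure D5:**
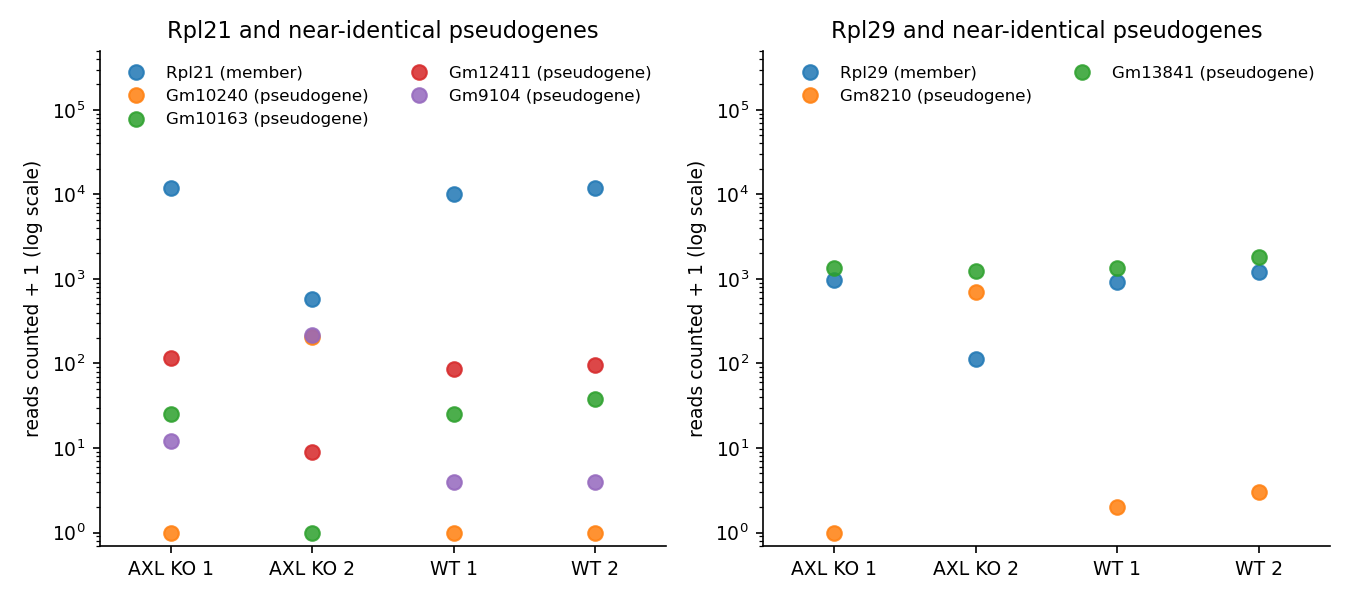
Reads counted on Rpl21 (left) and Rpl29 (right) and on near-identical pseudogenes, plus 1, in each library (log scale). AXL KO replicate 2 had 574 reads on Rpl21 and 113 on Rpl29, while Gm10240 had 206, Gm9104 218 and Gm8210 707 reads.

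Genes that make, regulate or accompany ribosomes were read from lists drawn up for this purpose. Of 350 tested genes on these lists and the marker lists, 0 were called by edgeR (0% of all genes) and 0 by DESeq2 (0.112%). An unadjusted p below 0.05 was found for 4 of them by edgeR (2.19% of all genes), all hypoxia targets at lower levels in AXL KO, and for 24 by DESeq2 (3.5% of all genes). The proteins of the ribosome outside the symbol rule followed the members: Rack1 had 893 and 829 CPM in AXL KO, against 788 and 1058 CPM in WT, and Fau 186 and 178 CPM in AXL KO, against 179 and 230 CPM in WT. Of 23 other genes with TOP messenger RNAs, such as elongation factors, 19 were below 0 (50.3% of all genes) and the median log2 difference was −0.10. Rack1 had the same value as this median (−0.09957), so this list may hold Rack1 too and not be separate from the proteins above. Among them the poly(A) binding protein gene Pabpc1 had 708 and 725 CPM in AXL KO, against 929 and 1286 CPM in WT, and Eif3h, a subunit of initiation factor 3, 224 and 228 CPM in AXL KO, against 236 and 420 CPM in WT. The 23 genes had a mean deviation from their own means (log2) of −0.09 and −0.06 in AXL KO, against −0.13 and 0.28 in WT. WT replicate 2 was thus highest for this list, as for the members. The list was not split by chromosome. Non-member genes on chromosomes 2, 15 and 18 also stood higher in that library (median 0.47, log2, against the mean of the other libraries). The part of chromosome in the values of this list was not tested. Of 46 ribosome biogenesis factors, 22 were above and 24 below 0 with a median of −0.0032, and of 76 genes for mitochondrial ribosomal proteins, 43 were above and 33 below 0 with a median of 0.03. The medians of the biogenesis and mitochondrial lists were closer to that of all genes (−0.0019) than that of the other TOP genes was.

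No gene of the regulator lists passed the test, and single genes lay on both sides of 0. Of 18 genes of mTORC1 and S6 kinase signalling, 7 were above and 11 below 0, with a median of −0.05. Eif4ebp1, which encodes the translation repressor 4E-BP1, had 23.5 and 29.0 CPM in AXL KO, against 30.4 and 56.4 CPM in WT. Of 10 genes of the MYC network, 9 were below 0, with a median of −0.06. Mnt, a repressor of MYC targets, had 15.2 and 17.8 CPM in AXL KO, against 22.7 and 24.3 CPM in WT. Of 14 RNA polymerase I genes the median was −0.07, of 29 initiation factors −0.04, of 12 ribosomal protein carriers −0.04, of 9 genes of ribosomal stress and p53 control −0.09, of 10 ribosome quality control genes −0.17 and of 8 small nucleolar RNA host genes −0.12.

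Other programmes also set WT replicate 2 apart. As the mean deviation from a gene's own mean over the 4 libraries (log2), the members stood at 0.07 and −0.19 in AXL KO, against −0.19 and 0.31 in WT. The 20 mitosis genes stood at −0.64 and −0.16 in AXL KO, against −0.23 and 1.03 in WT. The 15 hypoxia targets stood at −0.33 and −0.67 in AXL KO, against −0.47 and 1.47 in WT. The 15 interferon response genes, in contrast, stood at 1.17 and 1.39 in AXL KO, against 0.60 and −3.17 in WT. WT replicate 2 was thus the highest library for the members, the mitosis genes and the hypoxia targets, and the lowest for the interferon genes, while the order of the other 3 libraries differed between these lists. The 6 fibroblast markers summed to 270 and 908 CPM in AXL KO, against 675 and 981 CPM in WT, with none at 0, and mitochondrial genes took 5.26% and 4.05% of gene counts in AXL KO, against 3.80% and 5.75% in WT. The order of mitochondrial shares was the same as that of the members, and the part of these differences in the members' values was not tested.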

How the data were processed

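RNA of mammary tumours was sequenced (Illumina, per the series' design text) in 4 libraries, 2 AXL KO and 2 WT, grouped by title. Each deposited file is a table of raw counts, whole numbers by Ensembl gene, which the authors had not scaled. Among the tools named by the submitters' processing notes, without a role, are HTSeq 0.5.3, TopHat2 2.0.10, CASAVA 1.8 and DESeq2 1.4.5; the build is GRCm38. Annotation release and strand setting: not given in the sources used here. Genes that overlap on opposite strands therefore cannot be told apart. The 5 summary lines per file stayed out of all totals: reads outside genes took 8.11% and 5.90% of all lines in AXL KO, against 5.28% and 6.85% in WT, and ambiguous reads 1.85% and 1.09% in AXL KO, against 0.981% and 0.635% in WT. Of the gene IDs, 36429 matched GENCODE M21 (GRCm38) and 1864 did not.

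Genes were filtered with filterByExpr, which left 14330 of 20587 genes with a count, scaled with TMM factors and compared with edgeR 4.0.16 (glmQLFit with legacy=FALSE, glmQLFTest) under R 4.3.3, with all 4 libraries, no covariate and a threshold of 0.05 after Benjamini-Hochberg adjustment. The common dispersion was 0.0961. CPM carry TMM factors, log2 CPM a prior count of 2. DESeq2 1.42.0, limma-voom (limma 3.58.1), other scalings, filters, a replicate block and each library left out were tried. On simulated counts for 14330 genes in this comparison, the share called by edgeR was 10.4% at a 2-fold change, 81% at 4-fold and 98.4% at 16-fold, with 7 calls among unchanged genes. These counts were drawn gene by gene with a dispersion set by level only, and no simulated library stood apart as WT replicate 2 did. The shares called on the real counts may be lower, and Axl, at a log2 difference of −3.33, was not called.

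Coding sequences of GENCODE transcripts were cut into all stretches of 50 bases and looked up in every other gene. Figures and tables used Python 3.11.15. Named were Axl, members with a stated role or a paralog, the 5 highest and 5 lowest differences, the 3 highest and 3 lowest levels per coding length, up to 3 genes per list by smallest p, and the genes most like the median member. Members and lists were chosen with earlier results of these data known. Single members outside that rule are named as such. Intervals and floors cover counting error only.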

Additional observations from a re-analysis of the deposited data

How the results depend on the processing

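The count of members called was 0 under every alternative run. The count of all genes called was 0 except for 16 in DESeq2 and between 0 and 246 when 1 library was left out (246 without WT replicate 1). The median log2 difference of the members lay between −0.25 and 0.18 and the difference in their share of gene counts between −0.90 and 0.29 percentage points when 1 library was left out. Under the other alternatives the median stayed between −0.07 and −0.036, including members off chromosomes 2, 15 and 18 (−0.036) and members without Rpl21 and Rpl29 (−0.042), both chosen after seeing the data. The exception was scaling to the summed ribosomal protein counts, which gave a median of 0.056. With the replicate number as a block, 0 genes were called, 0 of them members, and the median was −0.036; same-numbered libraries shared only a number (correlation of deviations −0.045).

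The sign of single members turned round under several scalings, in each case by less than the standard error. Scaled to the summed ribosomal protein counts, the median of all genes was 0.07, and differences became positive for Rpl10 (0.049), Rpl41 (0.061), Rpl5 (0.082), Rpl7 (0.0060), Rplp0 (0.047), Rplp2 (0.028), Rps19 (0.082), Rps27 (0.074), Rps27a (0.13), Rps6 (0.070), Rpsa (0.073). Rpl11 was at −0.0025 with DESeq2 size factors, −0.024 with library totals and −0.0025 in DESeq2, and Rpl7l1 at −0.015 with library totals. Rps27a was at 0.0024 without the filter on low counts, 0.032 in limma-voom and 0.032 with the replicate block. Leaving out 1 library in turn gave log2 differences of either sign for 27 named members, with these ranges: Rpl10 −0.16 to 0.061, Rpl11 −0.21 to 0.26, Rpl17 −1.29 to 0.13, Rpl21 −4.98 to 0.19, Rpl22 −0.17 to 0.30, Rpl22l1 −0.66 to 0.33, Rpl3 −0.60 to 0.089, Rpl31 −0.23 to 0.41, Rpl35a −0.22 to 0.41, Rpl38 −0.092 to 0.30, Rpl39 −0.27 to 0.40, Rpl41 −0.26 to 0.19, Rpl5 −0.30 to 0.28, Rpl6 −0.0018 to 0.20, Rpl7 −0.44 to 0.30, Rpl7l1 −0.036 to 0.056, Rplp0 −0.069 to 0.0025, Rplp1 −0.12 to 0.35, Rplp2 −0.21 to 0.086, Rps14 −1.34 to 0.23, Rps19 −0.13 to 0.12, Rps27 −0.18 to 0.16, Rps27a −0.29 to 0.36, Rps27l −0.32 to 0.51, Rps4x −0.62 to 0.24, Rps6 −0.17 to 0.12, Rpsa −0.15 to 0.13. The cause of these changes was not tested. With 2 libraries in each group, 1 library decides the direction of most members, and 2-fold changes were seldom called on simulated counts.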
